A study of Mus musculus with 12 samples.

Results

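The 10 genes described here buffer, sense or move zinc. They are the metallothioneins Mt1 and Mt2, the metal-responsive transcription factor gene Mtf1, the zinc exporter genes Slc30a1, Slc30a4 and Slc30a5, and the zinc importer genes Slc39a6, Slc39a8, Slc39a10 and Slc39a14. Their rows were found by gene name, and they are 10 of the 52015 genes with a usable row in the deposited expression matrix. Of these 10 genes, 8 reached 0.5 FPKM (fragments counted per length of exon and per number of mapped fragments) in at least 1 group, as did 13414 of the 52015 genes. The cells were mpkCCD, a mouse line that originates from principal cells of the cortical collecting duct. Control cells (Scr, given as WT in the labels) carried a scramble gRNA that has no target and were grown for 5 days at 300 mosmol/kg (Scr_300, 2 libraries) or 600 mosmol/kg (Scr_600, 2 libraries). Cells with a CRISPR/Cas9 deletion of Nfat5, which codes for the tonicity-responsive transcription factor NFAT5, came from the 2 clones N1 and N3 and were grown in the same way (Nfat5-KO_300 and Nfat5-KO_600, 4 libraries each). The hypertonic medium held an added 100 mM NaCl and 100 mM urea, so that salt and urea cannot be told apart. With 2 knockout clones, the loss of NFAT5 and a property of these clones cannot be told apart either.

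Zinc is held inside cells mostly by proteins. Metallothioneins are small, cysteine-rich proteins that bind zinc and copper, and their genes are switched on when the zinc sensor MTF-1, the product of Mtf1, binds metal response elements in their promoters. Proteins of the SLC30 family (ZnT) carry zinc out of the cytosol, either across the plasma membrane or into organelles, and proteins of the SLC39 family (ZIP) carry it into the cytosol. The kidney is a site of high metallothionein expression, and tubule cells there take back filtered metals.

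The deposited matrix holds 1 FPKM value per gene and group, and no value per library. All differences below are therefore comparisons of 4 group values given by the authors, with no replicate check, and no SD, interval or p-value could be calculated. The sum of FPKM over all genes was between 212963 and 254885 in the groups. These sums are not reads, and the depth is unknown. Akr1b3, the aldose reductase gene induced by hypertonicity, had 23.9 FPKM in Scr_300, 175 in Scr_600, 14.5 in Nfat5-KO_300 and 39.2 in Nfat5-KO_600. Nfat5 transcript had 5.61, 7.93, 3.47 and 6.88 FPKM in the same order, so that it was lower in the knockout groups but not absent, and the transcript level alone does not check the genotype. Of 16 principal cell markers, 9 reached 0.5 FPKM in a group, with Krt18 at the top. Aqp2 was at most 0.245 FPKM and listed at 0 in Scr_300. Aqp4, Avpr2, Elf5, Scnn1b, Scnn1g and Fxyd4 were also under 0.5 FPKM. The 9 include Krt8, Krt18, Cdh1 and Epcam, whose specificity for principal cells was not tested. In the order Scr_300, Scr_600, Nfat5-KO_300 and Nfat5-KO_600, Gata3 had 3.409, 4.325, 11.83 and 30.04 FPKM. Hsd11b2 had 0.3827, 0.6554, 1.95 and 6.185, and Scnn1a 2.953, 1.315, 3.564 and 7.035. These genes and Tfcp2l1 were highest in Nfat5-KO_600, the group lowest in Mt1, Krt8, Krt18 and Epcam. Of 7 intercalated cell markers, Aqp6 and Atp6v1b1 reached 0.5 FPKM. Aqp6 had 0.139 FPKM in Scr_300, 1.08 in Scr_600, 0.101 in Nfat5-KO_300 and 3.53 in Nfat5-KO_600, and was highest in the group lowest in Mt1, while Atp6v1b1 had 0.973, 0.542, 0.438 and 0.149 FPKM in that order and was highest where Mt1 was highest. The part of these markers in the results below was not tested, and the defining genes Foxi1 and Atp6v0d2 were listed at 0 in every group. None of 5 fibroblast markers reached 0.5 FPKM, and 1 of 6 proximal tubule markers (Lrp2, 1.07 FPKM in Nfat5-KO_600) and 1 of 6 leukocyte and endothelial markers (Cd68, between 1.41 and 2.62 FPKM) did. In bulk RNA, fewer cells of a type and less RNA per cell cannot be told apart.

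Mt1 and Mt2 code for the metallothioneins expressed in most tissues, and their coding sequences are shown here because Mt1 carries the largest difference in this gene group while Mt2 was listed at 0. Capitals mark the codons of cysteine, the amino acid that holds the metal.
Mt1: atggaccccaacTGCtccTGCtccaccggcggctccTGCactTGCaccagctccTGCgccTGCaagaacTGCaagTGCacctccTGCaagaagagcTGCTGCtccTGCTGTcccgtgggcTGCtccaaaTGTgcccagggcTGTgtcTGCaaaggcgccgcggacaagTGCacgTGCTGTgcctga
Mt2: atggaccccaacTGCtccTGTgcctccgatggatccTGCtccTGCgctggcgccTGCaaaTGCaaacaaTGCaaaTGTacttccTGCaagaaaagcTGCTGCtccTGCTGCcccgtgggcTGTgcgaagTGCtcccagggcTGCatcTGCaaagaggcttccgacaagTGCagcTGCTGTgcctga

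Both coding sequences, each of the first-numbered transcript of the gene in GENCODE M21, had 186 bases and 61 codons before the stop, of which 20 (32.8%) were cysteine codons. The sequences were identical at 148 of 186 positions (79.6%), and the longest run of bases that any Mt1 transcript shared with any Mt2 transcript was 20 bases. In GRCm38, Mt2 lies at chr8:94172664-94173568 and Mt1 at chr8:94179082-94180327, both on the plus strand, with the start of Mt1 6418 bases after the start of Mt2.

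The letters of the metal response element core (TGCACNC or TGCGCNC, searched on both strands) were looked for between the start of the RefSeq promoter window and the start codon of Mt1 and Mt2, because this element links the metallothionein genes to the zinc sensor. In Mt1, 5 matches lay within 472 bases, 4 of them inside the annotated first exon. The first exons are those of GENCODE M21, and where transcription starts in these cells was not tested. Each is shown with 10 bases on either side, on the strand of the gene, and capitals mark the core (on the opposite strand it reads as GNGTGCA or GNGCGCA).
Mt1, 245 bases before the start codon: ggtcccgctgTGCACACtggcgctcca
Mt1, 220 bases before the start codon: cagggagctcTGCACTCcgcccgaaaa
Mt1, 202 bases before the start codon: gcccgaaaagTGCGCTCggctctgcca
Mt1, 138 bases before the start codon: accgcctgctGGGTGCAaaccctttgc
Mt1, 124 bases before the start codon: gcaaacccttTGCGCCCggactcgtcc
In Mt2, 7 matches lay within 480 bases, 3 of them inside the annotated first exon, and the 3 nearest to the start codon are shown.
Mt2, 172 bases before the start codon: gaaaaagggcGTGTGCAggcggcgggg
Mt2, 153 bases before the start codon: cggcgggggcGCGTGCAtggtgccttc
Mt2, 119 bases before the start codon: gcggagctttTGCGCTCgacccaatac
In Slc30a1, the exporter gene linked to the same sensor, 2 matches lay in the promoter window at chr1:191906531-191906830, 1 of them before the gene start. Its distance is counted from the RefSeq gene start of this window, which differs from the GENCODE M21 start of the gene.
Slc30a1, 43 bases before the gene start: cgggggttccGAGTGCAaagcaaagtt

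Promoter windows of 300 bases (250 before and 50 after the gene start, RefSeq, GRCm38.p6) were found for 8 of the 10 genes, with 10 windows in all, and Slc39a6 and Slc39a14 had none. The metal response element core was matched 3 times in the window of Mt1, 4 times in that of Mt2, 3 times in that of Slc30a4, 2 times in that of Slc30a1 and 1 time in that of Slc30a5. Mtf1 and both windows of Slc39a10 had no match, and Slc39a8 had 1 match in 1 of its 2 windows. Among all 32851 windows of this length, 25.7% held at least 1 match, 1.97% held at least 3 and 0.517% held at least 4. A match is a stretch of letters and not a shown binding site. The core of the tonicity-responsive enhancer, to which NFAT5 binds (TGGAAA, both strands), was matched in none of the 10 windows, against 21.4% of all windows, so that no stretch of letters counted for both motifs there. This says only that those letters are not within these windows.

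Mt1 had 36.7 FPKM in Scr_300, 15.9 in Scr_600, 16.1 in Nfat5-KO_300 and 6.92 in Nfat5-KO_600. The isotonic control cells stood highest, the hypertonic control and isotonic knockout cells were nearly level with each other, and the hypertonic knockout cells stood lowest, with 5.3 times between the highest and the lowest group. In Scr_300 Mt1 was above 94.1% of all genes with a value above 0, and in Nfat5-KO_600 it was above 77.6% of them. Under isotonic conditions, Mt1 in the knockout was 2.28-fold below its Scr level, a log2 ratio of FPKM + 0.1 of -1.19. Under hypertonic conditions it was 2.29-fold lower (-1.19). Hypertonic medium went with 2.31-fold lower Mt1 in Scr (-1.20) and with 2.32-fold lower Mt1 in the knockout (-1.20). All 4 ratios are built from the same 4 values, so any of them follows from the other three. Each lay in the low tail of the genes compared: 1.69% of genes had a lower ratio in Nfat5-KO_300 against Scr_300, 2.76% in Nfat5-KO_600 against Scr_600, 1.93% in Scr_600 against Scr_300 and 2.29% in Nfat5-KO_600 against Nfat5-KO_300. The hypertonic ratio of Mt1 differed by 0.00 between the genotypes (Nfat5-KO minus Scr, log2), and 99.9% of 13414 genes had a larger difference in either direction. When the groups were scaled to the same FPKM sum, the ratio of Nfat5-KO_600 against Nfat5-KO_300 was -0.96, under the 2-fold threshold.

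**Figure D1:**
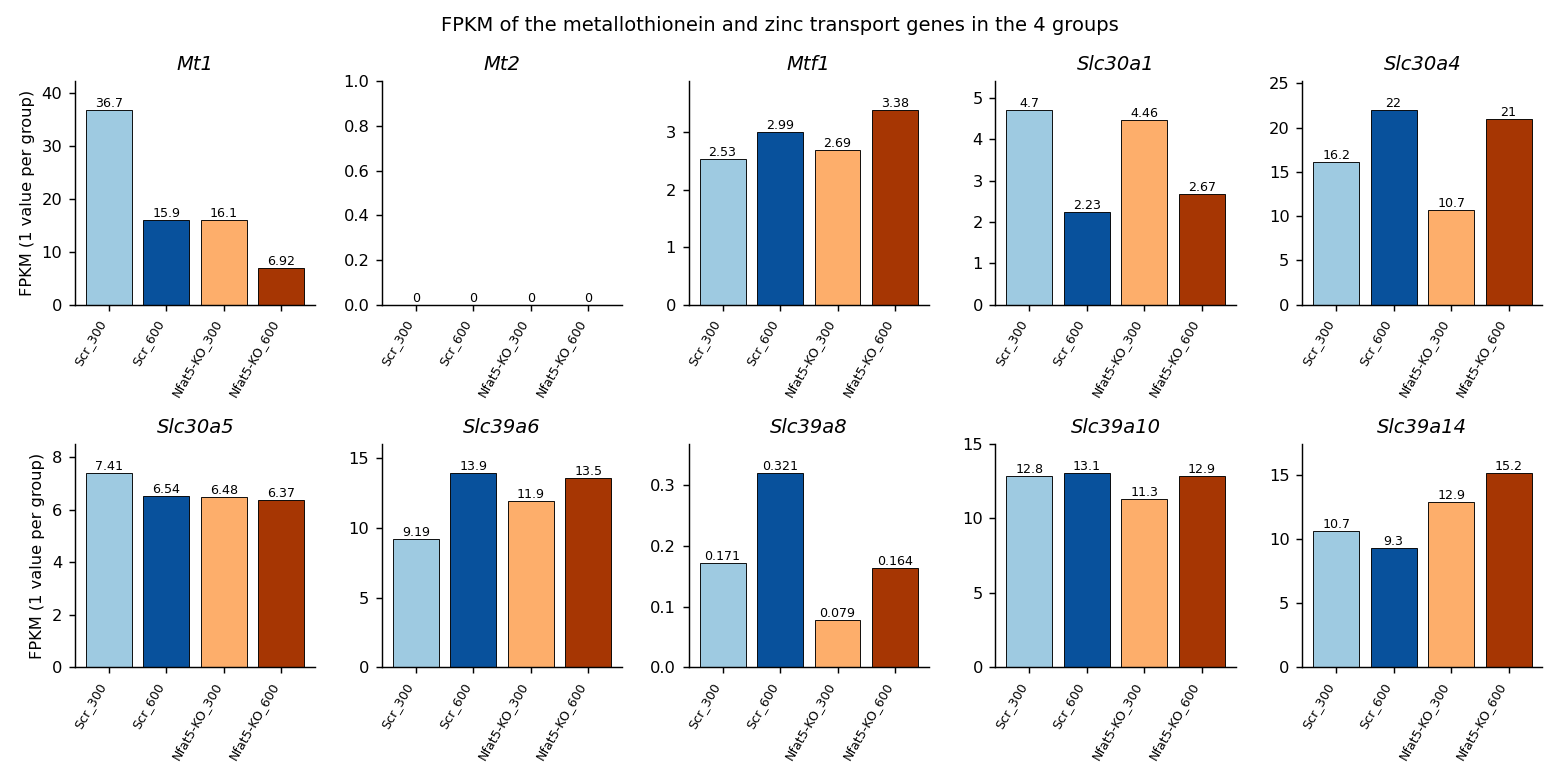
FPKM of the 10 genes in Scr_300, Scr_600, Nfat5-KO_300 and Nfat5-KO_600, each panel with its own linear axis from 0 and each bar 1 group value with no error. Mt1 went from 36.7 FPKM in Scr_300 to 6.92 in Nfat5-KO_600, Mt2 was listed at 0 in all 4 groups, and Slc39a8 stayed under 0.5 FPKM.

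Mt2 was listed at 0 FPKM in Scr_300, Scr_600, Nfat5-KO_300 and Nfat5-KO_600, so that no ratio was formed. An antisense gene, Gm45774 (chr8:94170748-94173412, minus strand), covers 432 of the 588 exon bases of Mt2 (73.5%) and was listed at 0 in all 4 groups as well. The other 156 exon bases of Mt2 lie in no exon of another gene. Without strand, reads from a gene and its antisense partner cannot be told apart, and whether strand was used in counting is not given in the sources used here. Of 15255 protein-coding genes with no exon base shared with another gene, 24% were listed at 0 in every group. Of 5818 with some but under 50% shared, 6.67% were. Of 330 with at least 50% and under 90% shared, like Mt2, 17.9% were. Of 209 with at least 90% shared, 64.6% were. These classes join overlap on the same and the opposite strand, and the share at 0 did not follow the overlap in 1 direction over them. Mt2 is overlapped on the opposite strand. Of 57 genes with at least 90% shared with the opposite strand, 80.7% were listed at 0. The part of the overlap in the value of Mt2 was not tested, and the 0 is therefore given as a listed value and not as absence of the transcript. Mt1 shares no exon base with another gene. The metallothionein genes with narrower expression were low: Mt3, the brain form, was at most 0.00799 FPKM, and Mt4, the form of stratified epithelia, had 0.188 FPKM in Scr_300 and was listed at 0 in the other groups. Mt1 was thus the 1 metallothionein of 4 that reached 0.5 FPKM.

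**Figure D2:**
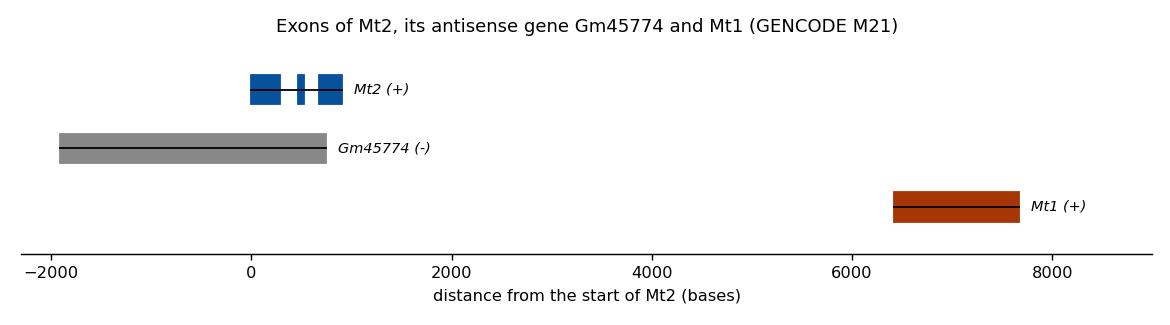
Exons (boxes, joined over the transcripts of a gene) of Mt2, its antisense gene Gm45774 and Mt1 in GENCODE M21, by distance from the start of Mt2 in bases, with the strand in brackets. The antisense gene lies across most of Mt2, 432 of 588 exon bases, and ends well before Mt1, which starts 6418 bases after Mt2.

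Mtf1 (chr4:124802104-124849800, plus strand), the gene of the zinc sensor, had 2.53 FPKM in Scr_300, 2.99 in Scr_600, 2.70 in Nfat5-KO_300 and 3.38 in Nfat5-KO_600. It varied by 1.34 times over the groups and was higher in hypertonic than in isotonic cells of both genotypes. Its log2 ratios were 0.09 for Nfat5-KO_300 against Scr_300, 0.17 for Nfat5-KO_600 against Scr_600, 0.24 for Scr_600 against Scr_300 and 0.32 for Nfat5-KO_600 against Nfat5-KO_300. The order of the groups in Mtf1 was thus the reverse of that in Mt1 at its ends, with Scr_300 lowest and Nfat5-KO_600 highest. Of the exon bases of Mtf1, 8.09% are shared with an antisense gene (1110065P20Rik), which had between 3.25 and 4.33 FPKM, so that reads of that stretch cannot be told apart without strand. The exon bases of Slc30a1 are shared with an antisense gene over 8.92% and those of Slc30a4 over 2.37%, and those antisense genes were at most 0.174 and 0.0579 FPKM. The other transporter genes among the 10 share none.

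Slc30a1 (ZnT1, chr1:191906767-191913247, plus strand) codes for the exporter at the plasma membrane. It had 4.70 FPKM in Scr_300, 2.23 in Scr_600, 4.46 in Nfat5-KO_300 and 2.67 in Nfat5-KO_600. Both isotonic groups stood above both hypertonic groups. Hypertonic medium went with 2.11-fold lower Slc30a1 in Scr (log2 ratio -1.04) and 1.67-fold lower Slc30a1 in the knockout (-0.72). The value in Scr cells lies at the 2-fold threshold: it was -0.82 with a pseudocount of 1 FPKM, -0.99 with median-of-ratios scaling and -0.92 with equal FPKM sums. Between genotypes the gene differed little, with an isotonic log2 ratio of -0.07 and a hypertonic one of 0.25. Mt1 and Slc30a1 were both lower in hypertonic medium, while Mt1 and not Slc30a1 was at least 2-fold lower in the knockout. Both are linked to the zinc sensor, but other genes linked to it went the other way. Of 8 such genes compared, 5 were lower and 3 higher in hypertonic medium in each genotype. Among all genes, 54.6% were lower in Scr and 52.9% in the knockout. Slc39a10, 1 of the higher genes, had log2 ratios of 0.03 in Scr and 0.19 in the knockout.

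Slc30a4 (ZnT4, chr2:122681233-122702663, minus strand), which loads zinc into vesicles, was the highest of the 3 exporter genes in every group. It had 16.2 FPKM in Scr_300, 22.0 in Scr_600, 10.7 in Nfat5-KO_300 and 21 in Nfat5-KO_600. The isotonic knockout cells stood apart at the low end, and the hypertonic groups were nearly equal. Under isotonic conditions the gene was 1.51-fold lower in Nfat5-KO cells (log2 ratio -0.59), and under hypertonic conditions the log2 ratio was -0.07. Against isotonic medium, hypertonic medium gave a log2 ratio of 0.44 for Scr and 0.96 for Nfat5-KO (1.96-fold higher), a difference of 0.52 that 22% of genes exceeded in size. The knockout ratio passed the 2-fold threshold under another scaling, with 1.05 for median-of-ratios scaling and 1.21 for equal FPKM sums.

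Slc30a5 (ZnT5, chr13:100802648-100833427, minus strand), which fills the early secretory pathway with zinc, was the most even of the exporter genes here. It had 7.41 FPKM in Scr_300, 6.54 in Scr_600, 6.48 in Nfat5-KO_300 and 6.37 in Nfat5-KO_600, which is 1.16 times between the ends. Its log2 ratios were between -0.19 and -0.03. The direction of the hypertonic ratio in Nfat5-KO cells (-0.03) turned to 0.05 with median-of-ratios scaling and 0.21 with equal FPKM sums.

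Among the importer genes, Slc39a6 and Slc39a10 (ZIP6 and ZIP10) code for related proteins at the plasma membrane that can form a complex. Slc39a6 had 9.19 FPKM in Scr_300, 13.9 in Scr_600, 11.9 in Nfat5-KO_300 and 13.5 in Nfat5-KO_600. It was lowest in Scr_300 and close to level in the hypertonic groups. Its log2 ratio of hypertonic against isotonic medium was 0.59 for Scr (1.51-fold higher) and 0.19 for Nfat5-KO, and its genotype ratio was 0.37 in isotonic and -0.04 in hypertonic medium. Slc39a10 (chr1:46807544-46892852, minus strand) had 12.8, 13.1, 11.3 and 12.9 FPKM in the order Scr_300, Scr_600, Nfat5-KO_300 and Nfat5-KO_600, with 1.16 times between the ends and log2 ratios between -0.18 and 0.19.

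Slc39a14 (ZIP14, chr14:70303469-70351425, minus strand) carries zinc, iron and manganese. It had 10.7 FPKM in Scr_300, 9.30 in Scr_600, 12.9 in Nfat5-KO_300 and 15.2 in Nfat5-KO_600. Both knockout groups stood above both control groups. The log2 ratio between genotypes was 0.28 in isotonic and 0.70 in hypertonic medium (1.63-fold higher, with 7.1% of genes higher still). Its log2 ratio of hypertonic against isotonic medium was -0.19 for Scr and 0.23 for Nfat5-KO, the 1 case of opposite signs among the 8 genes compared as the values were deposited.

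Slc39a8 (ZIP8, chr3:135825279-135888572, plus strand), a related carrier of zinc and manganese, had 0.171 FPKM in Scr_300, 0.321 in Scr_600, 0.0790 in Nfat5-KO_300 and 0.164 in Nfat5-KO_600. All 4 values are under 0.5 FPKM, and no ratio was formed at this level. Its highest value was in Scr_600 and its lowest in Nfat5-KO_300.

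Levels are set side by side between genes here because FPKM is per length. The length that was used for each gene is not given in the sources used here. The joined exons of Mt1 cover 1246 bases, and its first-numbered transcript has 549. The places of Mt1 below, and its level against all genes above, depend on that length and are not established. In Scr_300 the order was Mt1, Slc30a4, Slc39a10, Slc39a14, Slc39a6, Slc30a5, Slc30a1, Mtf1, Slc39a8 and Mt2. In Nfat5-KO_600 it was Slc30a4, Slc39a14, Slc39a6, Slc39a10, Mt1, Slc30a5, Mtf1, Slc30a1, Slc39a8 and Mt2. Mt1 stood 1st in both isotonic groups, 2nd in Scr_600 and 5th in Nfat5-KO_600. Neighbours in these orders often lay close, such as Slc39a6 (13.5) and Slc39a10 (12.9 FPKM) in Nfat5-KO_600, and with no spread over libraries their order is not established.

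**Figure D3:**
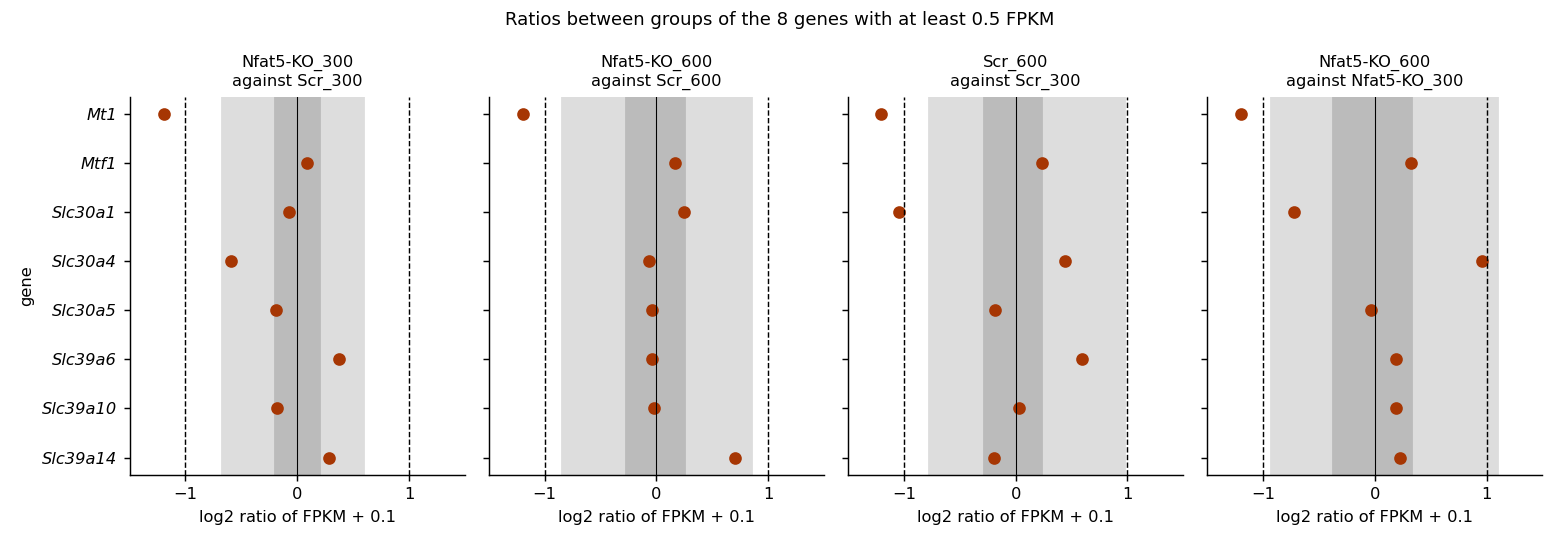
Log2 ratios of FPKM + 0.1 of the 8 genes that reached 0.5 FPKM in the 4 comparisons (points), with the range of the middle 90% (light grey) and middle 50% (dark grey) of all genes compared and dashed lines at 2-fold. Mt1 lies left of the light band in all 4 panels, between -1.20 and -1.19, and Slc30a1 joins it in Scr_600 against Scr_300 at -1.04.

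In Nfat5-KO_300 against Scr_300, 1 of the 8 genes (Mt1) was at least 2-fold changed, beside 4.17% of the 12704 genes compared, and 2 (Mt1 and Slc30a4) were at least 1.5-fold changed, beside 11.5%. Slc30a4 lies at the edge of 1.5-fold, and with a pseudocount of 1 FPKM (-0.55) or equal FPKM sums (-0.57) Mt1 alone passed. Mtf1, Slc39a6 and Slc39a14 were higher and the other 5 lower, and the median log2 ratio of the 8 was -0.13 against -0.00147 over all genes.

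In Nfat5-KO_600 against Scr_600, 1 of 8 (Mt1) was at least 2-fold changed, beside 7.44% of 13063 genes, and 2 (Mt1 and Slc39a14) were at least 1.5-fold changed, beside 19.3%. Of the 8 genes, 3 were higher and 5 lower, with a median of -0.03 against -0.0199 over all genes. For Slc30a4, Slc30a5, Slc39a6 and Slc39a10 the log2 ratio was between -0.07 and -0.02 and became positive, between 0.06 and 0.11, when the groups were scaled to equal FPKM sums. That scaling moved the median of all genes to 0.105 in this comparison and to 0.196 in Nfat5-KO_600 against Nfat5-KO_300.

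In Scr_600 against Scr_300, 2 of 8 (Mt1 and Slc30a1, both lower) were at least 2-fold changed, beside 7.67% of 12929 genes, and 3 (with Slc39a6, higher) were at least 1.5-fold changed, beside 19.4%. Slc39a6 fell short of 1.5-fold with a pseudocount of 1 FPKM (0.55). As many genes were higher as lower, 4 each, with a median of -0.08 against -0.0409 over all genes.

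In Nfat5-KO_600 against Nfat5-KO_300, 1 of 8 (Mt1) was at least 2-fold changed, beside 10.4% of 12982 genes, and 3 (Mt1, Slc30a1 and Slc30a4) were at least 1.5-fold changed, beside 27.9%. Slc30a1 fell short of 1.5-fold with a pseudocount of 1 FPKM (-0.57) and with equal FPKM sums (-0.48). Here 5 genes were higher and 3 lower, with a median of 0.19 against -0.0403 over all genes. Counts of 1 or 2 in 8 are too small to set this gene group apart from all genes.

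**Figure D4:**
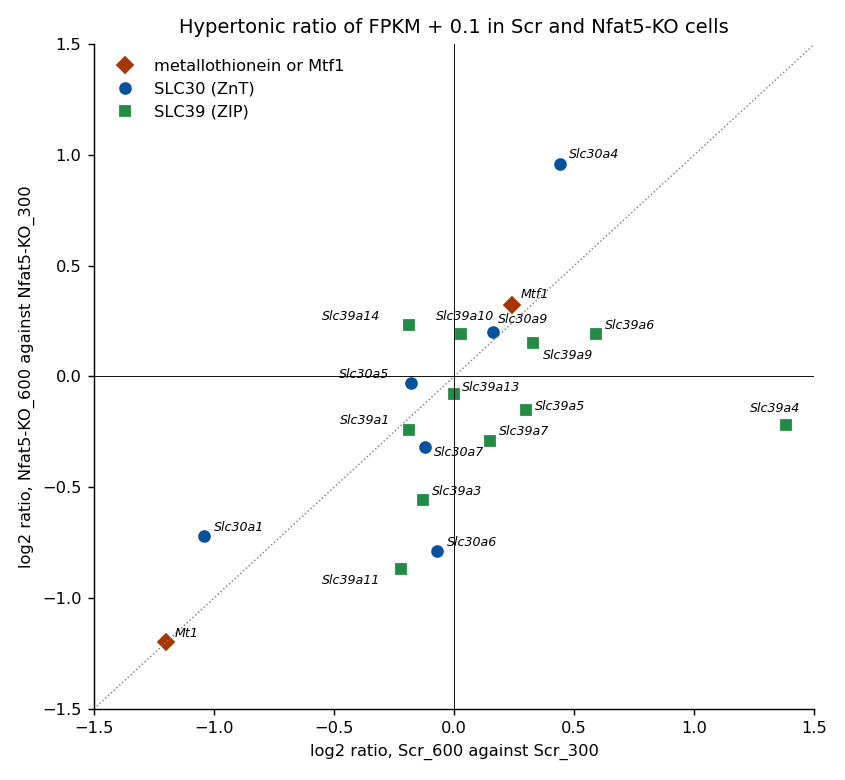
Log2 ratio of FPKM + 0.1 in hypertonic against isotonic medium for Scr (horizontal axis) and Nfat5-KO (vertical axis) for Mt1, Mtf1 and the ZnT and ZIP genes that reached 0.5 FPKM, each point 1 gene and the dotted line equal ratios. Mt1 lies on the line at -1.20 in both genotypes, Slc30a4 lies above it, and Slc39a4 lies farthest below it with 1.38 for Scr and -0.22 for Nfat5-KO.

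The whole ZnT family had 10 genes, of which 6 reached 0.5 FPKM. Slc30a2, Slc30a3, Slc30a8 and Slc30a10 did not, and were at most 0.0159 FPKM. Slc30a4 held between 25.4% and 45.5% of the summed ZnT level, which was between 42.2 and 48.3 FPKM in the groups. Slc30a6, whose product pairs with ZnT5, had 6.95 FPKM in Scr_300, 6.60 in Scr_600, 9.46 in Nfat5-KO_300 and 5.44 in Nfat5-KO_600, and thus was highest in isotonic and lowest in hypertonic knockout cells. Slc30a7, of the Golgi, had between 3.02 and 4.22 FPKM, and Slc30a9, of mitochondria, between 6.81 and 7.92 FPKM. In each of the 4 comparisons 2 of the 6 genes were higher and 4 lower, beside between 50.2% and 54.6% of all genes lower. Their medians lay between -0.17 and -0.03, beside medians of all genes between -0.0409 and -0.00147. Slc30a1 in Scr_600 against Scr_300 was the 1 difference of at least 2-fold, beside 7.67% of all genes. In the other comparisons none of the 6 was at least 2-fold changed, beside between 4.17% and 10.4% of all genes. The medians turned positive with equal FPKM sums, except in Nfat5-KO_300 against Scr_300.

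The ZIP family had 14 genes, of which 11 reached 0.5 FPKM, and Slc39a2, Slc39a8 and Slc39a12 did not. Slc39a1 (ZIP1), a widely expressed importer, was the highest, with 48.8 FPKM in Scr_300, 42.9 in Scr_600, 61.6 in Nfat5-KO_300 and 52.2 in Nfat5-KO_600. It held between 36.9% and 44.7% of the summed ZIP level, which was 116 FPKM in both Scr groups, 138 in Nfat5-KO_300 and 125 in Nfat5-KO_600. In Nfat5-KO_300 against Scr_300, 9 of the 11 genes were higher and 2 lower, beside 6327 higher and 6377 lower among all genes, with a median of 0.18 against -0.00147. None of the 11 was at least 2-fold changed, beside 4.17% of all genes. In Nfat5-KO_600 against Scr_600, 4 were higher and 7 lower, beside 52.2% of all genes lower. The median was -0.04 (-0.0199 over all genes) and turned to 0.09 with equal FPKM sums. None was at least 2-fold changed, beside 7.44% of all genes. In Scr_600 against Scr_300, 6 were higher and 5 lower, beside 54.6% of all genes lower, with a median of 0.03 (-0.0409 over all genes). Slc39a4 was the 1 gene at least 2-fold changed, beside 7.67% of all genes. In Nfat5-KO_600 against Nfat5-KO_300, 4 were higher and 7 lower, beside 52.9% of all genes lower. The median was -0.15 (-0.0403 over all genes) and turned to 0.06 with equal FPKM sums. Again none was at least 2-fold changed, beside 10.4% of all genes.

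Slc39a4 (ZIP4), best known as the zinc importer of the gut, had 1.13 FPKM in Scr_300, 3.10 in Scr_600, 2.21 in Nfat5-KO_300 and 1.88 in Nfat5-KO_600. It was 2.75-fold higher in hypertonic than isotonic Scr cells (log2 ratio 1.38, or 0.95 with a pseudocount of 1 FPKM, under the threshold), and the same ratio for Nfat5-KO was -0.22. The difference between genotypes was -1.60, and 2.53% of genes had a larger one in either direction. Slc39a11 had 11.5, 9.89, 13.0 and 7.11 FPKM in the order Scr_300, Scr_600, Nfat5-KO_300 and Nfat5-KO_600, and Slc39a3 had 7.18, 6.53, 6.77 and 4.54, so that both were lowest in Nfat5-KO_600. Slc39a9 had between 5.97 and 8.83 FPKM, Slc39a13 between 5.11 and 5.64, Slc39a7, of the endoplasmic reticulum, between 3.07 and 3.86, and Slc39a5 between 0.474 and 0.619.

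**Figure D5:**
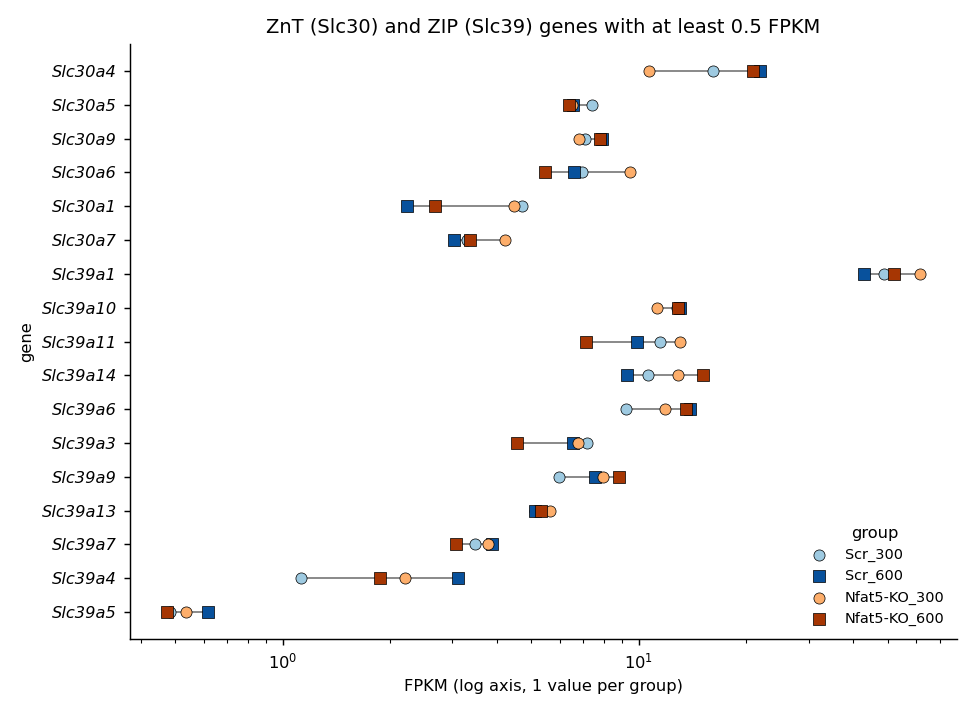
FPKM (log axis) of the 6 ZnT and 11 ZIP genes that reached 0.5 FPKM, with 1 symbol per group (circles 300 mosmol/kg, squares 600 mosmol/kg, blue Scr, orange and brown Nfat5-KO) and a grey line over the range. Slc30a4 leads the ZnT genes and Slc39a1 the ZIP genes in all groups, and Slc39a4 has the widest range, 2.75 times.

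A list of 9 genes linked to MTF-1 (Mt1, Mt2, Slc30a1, Slc39a10, Gclc, Selenow, Ndrg1, Csrp1 and Slc40a1) did not differ in 1 direction. The list does not say which genes MTF-1 raises and which it lowers, and the activity of MTF-1 was not tested. Of the 8 that could be compared, 3 were at least 2-fold lower in Scr_600 against Scr_300 and none at least 2-fold higher, with a median of -0.43 against -0.0409 over all genes, of which 7.67% were at least 2-fold changed (370 of 12929 lower). These were Mt1, Slc30a1 and Ndrg1, a stress-responsive gene with 24.2 FPKM in Scr_300, 9.01 in Scr_600, 11.6 in Nfat5-KO_300 and 6.79 in Nfat5-KO_600. Mt1 and Slc30a1 were already counted above for this comparison, so that only Ndrg1 is added here. The list was also chosen with earlier results of these data known. The count of 3 was 2 with a pseudocount of 1 FPKM, with median-of-ratios scaling and with equal FPKM sums, since Slc30a1 then lay under the threshold. Like Mt1, Ndrg1 was also at least 2-fold lower in Nfat5-KO_300 against Scr_300 (log2 ratio -1.06), while at 600 mosmol/kg its genotype ratio was -0.40. In Nfat5-KO_600 against Scr_600, Mt1 was lower and 2 other genes were at least 2-fold higher, beside 7.44% of all genes. Gclc, the catalytic subunit of the first enzyme of glutathione synthesis, had 13.6 FPKM in Scr_300, 16.3 in Scr_600, 17.2 in Nfat5-KO_300 and 42.6 in Nfat5-KO_600. Slc40a1, the iron exporter ferroportin, had 0.758, 1.12, 1.20 and 2.60 FPKM in that order, and in this comparison its log2 ratio was 0.77 with a pseudocount of 1 FPKM, under the threshold. The hypertonic knockout cells, lowest in Mt1, thus stood highest in Gclc and Slc40a1.

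For other metals, of 11 copper genes, 9 could be compared between the genotypes at 600 mosmol/kg, and Atp7b, a copper exporter, was the 1 at least 2-fold changed (0.440 FPKM in Scr_600 and 0.985 in Nfat5-KO_600), which is close to the 7.44% of all genes. Its log2 ratio was 1.01, and 0.46 with a pseudocount of 1 FPKM. Of 13 iron genes, 10 could be compared, and Slc40a1 was the 1 at least 2-fold changed, in Nfat5-KO_600 against either Scr_600 (beside 7.44% of all genes) or Nfat5-KO_300 (beside 10.4%). With a pseudocount of 1 FPKM it passed neither (0.77 and 0.71). In the remaining comparisons no copper or iron gene was at least 2-fold changed, beside between 4.17% and 10.4% of all genes. With so few genes compared, these counts do not set copper or iron genes apart from all genes.

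The genes with the most similar pattern over the 4 groups were found by the distance of centred log2(FPKM + 0.1) values among 11921 genes that reached 1 FPKM, as a description over 4 values. For Mt1 they were Gm25618, Cers3 and Gm25604, with distances between 0.188 and 0.202, all of them at low levels (at most 1.78 FPKM). With a pseudocount of 1 FPKM they were instead Pdk1, Adam8 and Ltf, so that the neighbours of Mt1 depend on this choice. Pdk1 had 16.2 FPKM in Scr_300, 7.54 in Scr_600, 7.64 in Nfat5-KO_300 and 2.62 in Nfat5-KO_600, the same order of groups as Mt1. For Mtf1 they were Wasl, Mtor and Sgtb, for Slc30a1 they were Rpl30, AI464131 and Gm16755, and for Slc30a4 they were Rpl13a, Rilp and Ypel3. With a pseudocount of 1 FPKM, 2 of the 3 stayed for Mtf1 (Mtor and Sgtb), 1 for Slc30a1 (Gm16755) and 1 for Slc30a4 (Rpl13a), so these neighbours depend on the choice as well. Mt2, listed at 0 in every group, has no pattern.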

How the data were processed

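RNA-seq was done on 12 mpkCCD libraries. The authors mapped paired-end reads to GRCm38 (mm10) with HISAT2 and counted reads per gene with HTSeq, as the methods and the submitters' processing notes name them (versions are not given in the sources used here). The values they deposited are FPKM, 1 per gene and group, and the way in which they joined a group's libraries into 1 value is not given in the sources used here. The matrix has 54839 rows. Empty rows (2436), exact repeats (311) and symbols with conflicting rows (37) were dropped.

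Ratios are log2 of FPKM + 0.1 where either of the 2 groups reached 0.5 FPKM, which understate changes of low genes. A fold is the ratio of FPKM without the pseudocount. A gene was called changed from 2-fold, with no test. Only the ratio call and the median-of-ratios factors were tested on simulated data, with changes larger than 2-fold. The authors' tests need values per library and were not repeated. The 10 genes, the lists and the motifs were chosen with earlier results of these data known. All 10 genes are named. Other ZnT, ZIP and metallothionein genes are named where they reached 0.5 FPKM, genes of other lists where they were at least 2-fold changed, and the 3 genes nearest in pattern for Mt1, Mtf1 and the 2 other genes of widest range. Mt3, Mt4, the transporters under 0.5 FPKM, the antisense genes, the markers, Aqp6 and Atp6v1b1 among them, the full MTF-1 list and the neighbours of Mt1 with a pseudocount of 1 were named after their values were seen. Positions and exon overlap come from GENCODE M21, and promoter windows from RefSeq (GRCm38.p6). Alternatives were a pseudocount of 1 or 0.01, a filter on a mean of 1 FPKM or none, a 1.5-fold threshold, median-of-ratios factors (1.02 for Scr_300, 0.984 for Scr_600, 1.03 for Nfat5-KO_300, 0.971 for Nfat5-KO_600) and equal FPKM sums. Calculations used pandas 2.3.3 and numpy 2.4.6 in Python 3.11.15, and plots matplotlib 3.10.9.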

Additional observations from a re-analysis of the deposited data

Results flagged for a closer look

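The following genes had ratios of opposite sign under the same contrast, and with 1 value per group these differences were not tested. In hypertonic against isotonic medium, the log2 ratio was -0.19 in Scr and 0.23 in Nfat5-KO cells for Slc39a14, 1.38 and -0.22 for Slc39a4, 0.30 and -0.15 for Slc39a5, and 0.15 and -0.29 for Slc39a7. In Nfat5-KO against Scr cells, the log2 ratio was -0.07 at 300 mosmol/kg and 0.25 at 600 mosmol/kg for Slc30a1, 0.37 and -0.04 for Slc39a6, and 0.44 and -0.27 for Slc30a6. It was 0.91 and -0.69 for Slc39a4, 0.12 and -0.33 for Slc39a5, 0.12 and -0.32 for Slc39a7, and 0.18 and -0.47 for Slc39a11. Slc39a4, Slc39a5 and Slc39a7 were thus highest in Scr_600, with 3.10, 0.619 and 3.86 FPKM. Both contrasts use the same 4 values, so a gene named under both is 1 observation. With equal FPKM sums the genotype ratio of Slc39a6 was 0.38 at 300 and 0.09 at 600 mosmol/kg, so its signs no longer differed. That scaling moved the median of all genes from -0.0403 to 0.196 in Nfat5-KO_600 against Nfat5-KO_300. The signs of Slc39a4, Slc39a5 and Slc39a7 under it were not calculated. The values of Slc39a5 lie near the filter of 0.5 FPKM.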

How the results depend on the processing

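Every group has 1 value, so neither the spread between libraries nor the part of clone N1 or N3 could be seen, and depth is unknown. No paired analysis was possible because the deposited values hold no libraries, and for the same reason no replicate could be left out. Of 192 log2 ratios of the 8 genes under the alternatives, 180 kept their direction and side of the 2-fold threshold. Both filter settings only choose which genes are compared and cannot change a gene's ratio. The ratios under them were thus kept by construction and are no check, though they are counted in the 192 and the 180. The 6 that changed sign were Slc30a4 (0.06), Slc30a5 (0.09), Slc39a6 (0.09) and Slc39a10 (0.11) in Nfat5-KO_600 against Scr_600 with equal FPKM sums, and Slc30a5 in Nfat5-KO_600 against Nfat5-KO_300 (0.05 with median-of-ratios scaling, 0.21 with equal sums). Scaling shifts all genes of a comparison almost alike, and equal sums moved the median of all genes to 0.0863 in Scr_600 against Scr_300. Below 2-fold came Slc30a1 in Scr_600 against Scr_300 (-0.82, -0.99 and -0.92) and Mt1 in Nfat5-KO_600 against Nfat5-KO_300 (-0.96). Slc30a4 in the latter comparison passed 2-fold (1.05 and 1.21). The difference between genotypes of the hypertonic ratio of Mt1, 0.00, was 0.05 with a pseudocount of 1, 0.03 with median-of-ratios scaling and 0.11 with equal sums.

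The median of the ZnT genes turned to 0.03 in Nfat5-KO_300 against Scr_300 and to 0.03 in Nfat5-KO_600 against Scr_600 without a filter, and was -0.02 in Nfat5-KO_600 against Nfat5-KO_300. With equal sums it was 0.10 in Nfat5-KO_600 against Scr_600, 0.03 in Scr_600 against Scr_300 and 0.06 in Nfat5-KO_600 against Nfat5-KO_300. That of the ZIP genes was 0.09 in Nfat5-KO_600 against Scr_600 and 0.06 in Nfat5-KO_600 against Nfat5-KO_300. The counts of genes at least 2-fold changed, in the order Nfat5-KO_300 against Scr_300, Nfat5-KO_600 against Scr_600, Scr_600 against Scr_300 and Nfat5-KO_600 against Nfat5-KO_300, were 530, 972, 992 and 1346. They were 135, 338, 375 and 489 with a pseudocount of 1 FPKM, 1228, 1884, 1835 and 2211 without a filter, and 259, 548, 553 and 855 with a mean of at least 1 FPKM. With a 1.5-fold threshold they were 1459, 2518, 2510 and 3628. The cause of these changes was not tested.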
